A study of Mus musculus with 17 samples.

Results

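ATAC-seq, which marks open chromatin by where a transposase can cut, was read here through 64144 kidney regions that were found in 1 library and in no other. They are 55.0% of the 116556 regions obtained from 17 libraries. They were selected on summit score and position. From each library the highest-scoring summits were taken, as many as the shortest list (Case 4) holds. Windows reaching 250 bp either way from each summit were merged across libraries, and regions with summits of exactly 1 library were kept. The score is the peak caller's −log10 p-value or q-value at the summit. The members were thus chosen by these measured values, so their number, rank and score are given as a description with no test. The remaining 52412 regions, found in 2 or more libraries, are called shared.

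The Ctrl group held 5 wild-type C57BL/6 mice and the Case group 6 diabetic db/db animals of strain BKS.Cg-Dock7m +/+ Leprdb/J, which lack a working leptin receptor. In the Dapa group, 6 db/db mice took dapagliflozin daily over 6 weeks (1 mg/kg/day), a drug that blocks SGLT2, the transporter by which the proximal tubule takes up glucose. All mice were male and 8 weeks old at the start, and Ctrl and Case mice received saline. The methods give both drinking water and gavage as the route. Genotype, diabetes and strain changed together between Ctrl and db/db mice and cannot be told apart. Each library came from 20000 kidney cells of mixed types, so fewer cells of a type and less signal per cell cannot be told apart.

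Open chromatin falls into promoters, which most cell types share, and distal elements, which are often particular to a cell type and are bound by its own factors. In kidney tubules such factors include HNF1 and HNF4. PU.1, encoded by Spi1, directs myeloid and B cell programmes, and AP-1 is a Fos and Jun dimer of activated cells.

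Sequences are shown first for the best-ranked single-library regions, because they show how unlike the strongest members of different mice are. Each run is the plus strand from 100 bases before the summit to 100 after it, from the RefSeq GRCm38 assembly (build mm10). Capitals mark matches on either strand to AP-1 (TGANTCA), PU.1 (GAGGAAGT) or an HNF1 site (GTTAATNAT, called the HNF1 motif). For each group the first 2 are the best-ranked members of all its mice.
Ctrl 2 rank 2531: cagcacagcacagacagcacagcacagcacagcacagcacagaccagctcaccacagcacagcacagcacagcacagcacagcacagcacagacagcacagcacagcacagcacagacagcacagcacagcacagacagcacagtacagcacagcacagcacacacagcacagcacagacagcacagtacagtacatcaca
Ctrl 2 rank 8190: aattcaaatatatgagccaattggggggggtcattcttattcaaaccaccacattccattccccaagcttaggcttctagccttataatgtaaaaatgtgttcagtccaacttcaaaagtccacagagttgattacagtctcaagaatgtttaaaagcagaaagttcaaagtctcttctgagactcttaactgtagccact
Case 3 rank 1899: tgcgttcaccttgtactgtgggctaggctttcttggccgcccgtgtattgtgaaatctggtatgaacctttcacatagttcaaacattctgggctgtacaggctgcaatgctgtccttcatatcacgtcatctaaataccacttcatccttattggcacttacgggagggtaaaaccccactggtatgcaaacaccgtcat
Case 3 rank 2122: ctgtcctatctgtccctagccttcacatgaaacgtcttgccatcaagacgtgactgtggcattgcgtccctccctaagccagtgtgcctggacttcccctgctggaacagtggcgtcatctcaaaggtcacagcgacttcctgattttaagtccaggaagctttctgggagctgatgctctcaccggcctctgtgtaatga
Dapa 11 rank 466: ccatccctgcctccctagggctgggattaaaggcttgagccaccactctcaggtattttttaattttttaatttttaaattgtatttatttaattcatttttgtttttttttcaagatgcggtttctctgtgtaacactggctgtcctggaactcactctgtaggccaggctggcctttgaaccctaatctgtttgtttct
Dapa 11 rank 1113: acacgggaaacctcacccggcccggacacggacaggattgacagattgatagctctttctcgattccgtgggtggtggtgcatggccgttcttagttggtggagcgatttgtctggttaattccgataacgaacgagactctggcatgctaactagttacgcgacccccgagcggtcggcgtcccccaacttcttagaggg
The next 2 were chosen after the values had been seen. They are the best-ranked Ctrl member with an HNF1 motif and the best-ranked Case 3 member with both an AP-1 and a PU.1 match.
Ctrl 2 rank 11480: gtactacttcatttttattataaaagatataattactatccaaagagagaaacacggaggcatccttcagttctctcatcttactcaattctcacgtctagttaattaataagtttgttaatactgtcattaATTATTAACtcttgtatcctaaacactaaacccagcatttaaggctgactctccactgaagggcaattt
Case 3 rank 3576: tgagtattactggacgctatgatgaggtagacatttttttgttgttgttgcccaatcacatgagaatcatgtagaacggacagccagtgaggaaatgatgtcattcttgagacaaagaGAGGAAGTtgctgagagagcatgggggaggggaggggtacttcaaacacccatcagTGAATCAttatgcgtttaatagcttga

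The best Ctrl member, at chr13:74528638-74528838, was a short repeated unit, with 97.5% of its bases repeat-masked. It had 175 other alignments in the genome that covered at least 80% of it at 90% identity or more. Overlapping alignments count separately, so this is not a number of distinct places. It lay 4788 bp from the pseudogene Gm5626. The next, at chr2:81185707-81185907, was intergenic and 201618 bp from the nearest annotated start, and the third lay in an intron of Cdc73. The best Case member, at chr6:134802663-134802863, was unmasked, intergenic and 10138 bp from the start of Dusp16, a phosphatase of MAP kinases. The second, at chr1:39847125-39847325, was the promoter of the lincRNA 1700066B17Rik, 105 bp from its start. The third lay in an intron of Cxcr5, a chemokine receptor of B cells, 7708 bp from its start. The best Dapa member, at chr15:75085569-75085769, was 100% repeat-masked. The second, at chr17:39847610-39847810, overlapped the annotated genes CT010467.1, Gm42418 and AY036118. It was 325 bp from the start of the last, a lincRNA, and had 1 other such alignment. Copies that the assembly lacks are not counted. The third was intergenic on chromosome 19. The HNF1 example lies at chr4:80853990-80854190, 7502 bp from Tyrp1, and Ctrl 1 and Ctrl 3 also had a lower-ranked summit there. The AP-1 and PU.1 example lies at chr1:184618183-184618383 in the promoter of the lincRNA Gm37800, and Dapa 8 had a lower-ranked summit there.

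At equal list length, 4 Case and 4 Dapa mice held more single-library regions than any Ctrl mouse, an order not kept under a floor on score. Ctrl 1 to 5 held 1686, 1699, 1391, 3176 and 2757 of them. Case 1 to 6 held 3435, 7042, 9015, 6199, 1516 and 3142. Dapa 7 to 12 held 3218, 4566, 5374, 5108, 1879 and 2941. The groups overlapped, since Case 5, Case 6, Dapa 11 and Dapa 12 lay within the Ctrl range. When only summits scoring 5 or more were used, an alternative chosen after seeing the data, this order was not kept, with 1098 to 2330 single-library regions in Ctrl, 770 to 2406 in Case and 898 to 1736 in Dapa mice. They made up 7.41% ± 2.74 of a library's regions in the 5 Ctrl mice (mean ± SD), 17.7% ± 9.91 in the 6 Case mice and 13.3% ± 4.77 in the 6 Dapa mice. Case 3 had the highest share, at 31.5%, and Ctrl 3 the lowest, at 4.78%.

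**Figure D1:**
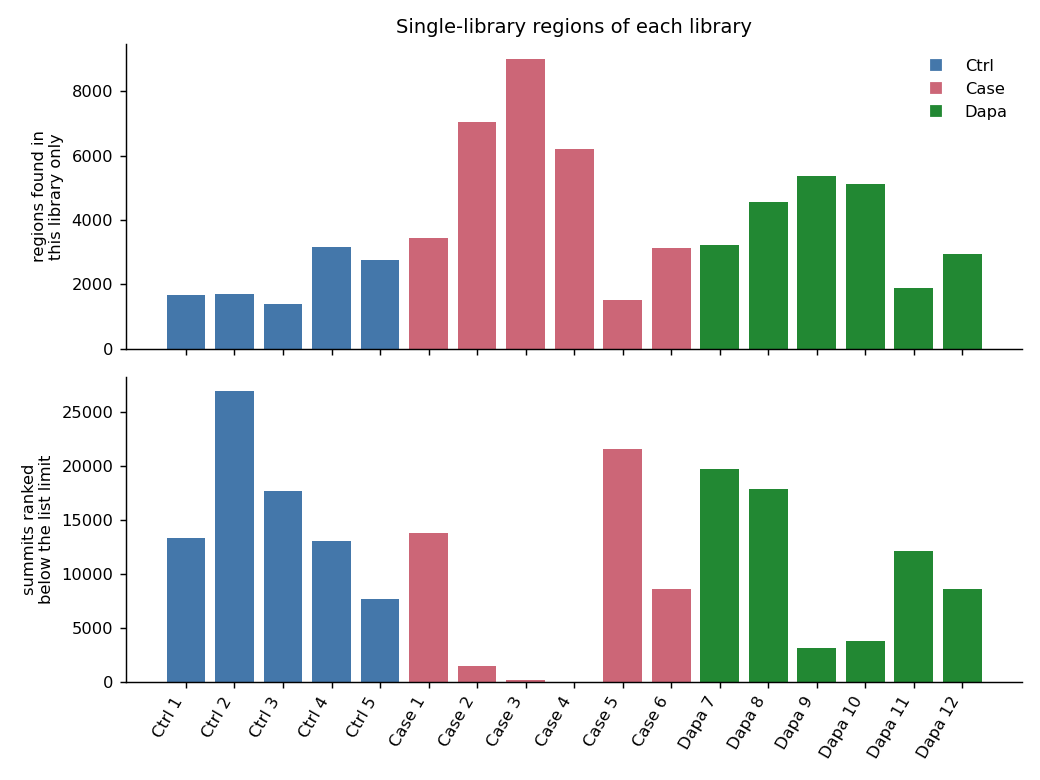
Bars give for each library the number of regions found in it alone (top) and of summits ranked below the list limit (bottom), with colour for the group. Case 3, with 9015 single-library regions, had 143 summits below the limit, and Ctrl 2, with 1699, had 26957.

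The 5 shortest lists held the most members, but the order of the other 12 by members was not that by length, and the part of list length in the group values was not tested. The longest list, that of Ctrl 2, had 56659 summits, and the sequencing depth behind them is unknown. Case 4, Case 3, Case 2 and Dapa 9 had 0, 143, 1474 and 3144 summits below the limit, and held 6199, 9015, 7042 and 5374 single-library regions. Dapa 8 and Dapa 7, with 17862 and 19740 below the limit, held 4566 and 3218, and Ctrl 5, with 7700, held 2757. The score of the last summit used was 2.01 in Case 4 and 5.53 in Ctrl 2, so the same rank reached weaker summits in short lists. The score of the next summit down was equal to 3 significant digits in each of the other 16 libraries, with up to 4351 summits tied at the limit in Case 1. With only summits scoring 5 or more within the list limit there were 24935 single-library regions. Case 3 then had the highest share, 15.9% of its regions against 4.15% to 8.29% in the other 16 libraries. Just outside the rule lay 12412 regions found in exactly 2 libraries.

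Most single-library regions ranked low in their own list. The median rank of members was 25811 ± 492 in Ctrl (SD, n = 5), 24020 ± 1719 in Case and 24896 ± 733 in Dapa (SD, n = 6 each), against 13529, 12161 and 12658 for shared regions. No library but Ctrl 2, Case 3 and Dapa 11 had a member in the first of 5 equal rank classes of its list. Ctrl 2 had 1 there, Dapa 11 had 3 and Case 3 had 93. In the second class members made up 14.7% of the regions of Case 3, 5.09% in Case 2 and 2.98% in Case 4, and 1.39% or less elsewhere. In the last class the share ran from 16.9% in Ctrl 3 to 61.0% in Case 3.

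**Figure D2:**
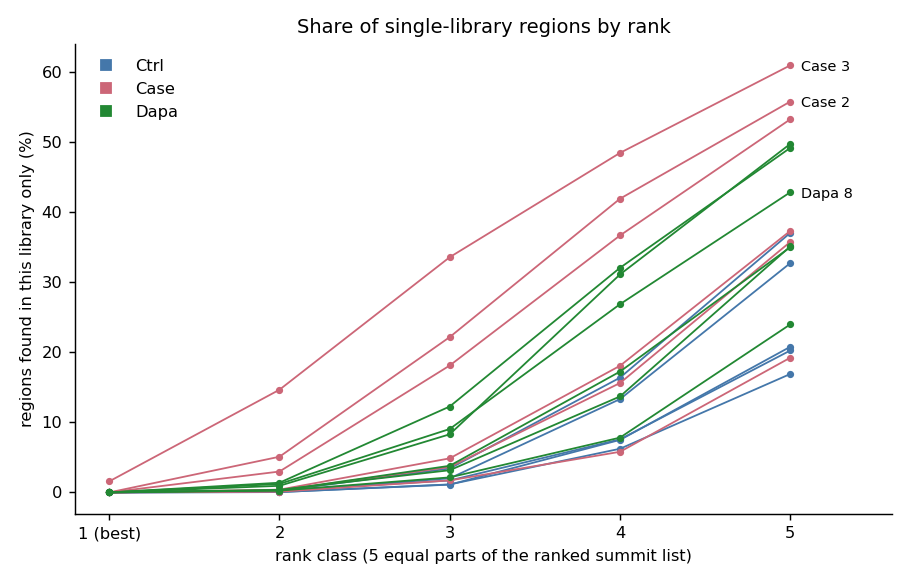
Each line is a library, coloured by group. The vertical axis gives the percentage of its regions found in no other library and the horizontal axis 5 equal rank classes of its summit list. All lines rise towards the low ranks, and that of Case 3 is highest in every class, from 1.58% to 61.0%.

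Single-library regions lay away from promoters more often than shared regions did. No comparison with the genome as a whole was made. Of the 64144, 6446 (10.0%) had their lead summit within 1 kb of a transcription start, 2700 (4.21%) lay in other exons, 24071 (37.5%) in introns and 30927 (48.2%) between genes. Within libraries the promoter share of members minus that of shared regions was −36.5 percentage points on average, from −41.2 to −32.2 in the 17 libraries. All 17 differences had the same sign (permutation test with sign flips, 2-sided, p = 2e-05, adjusted over 12 tests 0.00012). The libraries share many of the regions compared, 7865 of them in all 17, and membership in 1 depends on the other lists. The 17 values are thus not independent, and the p-value does not measure evidence over 17 separate replicates. The promoter difference was −26.5 points between regions of like rank and −3.95 points against regions found in exactly 2 libraries, both with the same p. The neighbourhood was sparser too. The nearest shared region was a median of 18594 bp from a member and 6936 bp from another shared region.

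The bases of members were less rich in G and C than those of shared regions, and more of them were repeats. Mean G+C around the summit was lower in members, with a difference from shared regions of −7.52 percentage points, from −9.26 to −5.91 in the 17 libraries (permutation test with sign flips, 2-sided, p = 2e-05, adjusted over 12 tests 0.00012). The limit given for the promoter p-value holds here too. Members held 33.4% ± 8.92 repeat-masked bases (SD, n = 17) and shared regions 12.7% ± 2.45. Regions of exactly 2 libraries lay much closer. Over all regions of each kind, mean G+C was 50.0% in members and 51.4% in those of 2 libraries, and masked bases 36.3% and 31.6%. Case 2 and Dapa 9 stood highest, with 51.6% and 50.3% of member bases masked. The same 2 libraries had the largest share of members on chromosome Y, 1.48% and 1.32%, against 0.607% or less in the other 15.

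**Figure D3:**
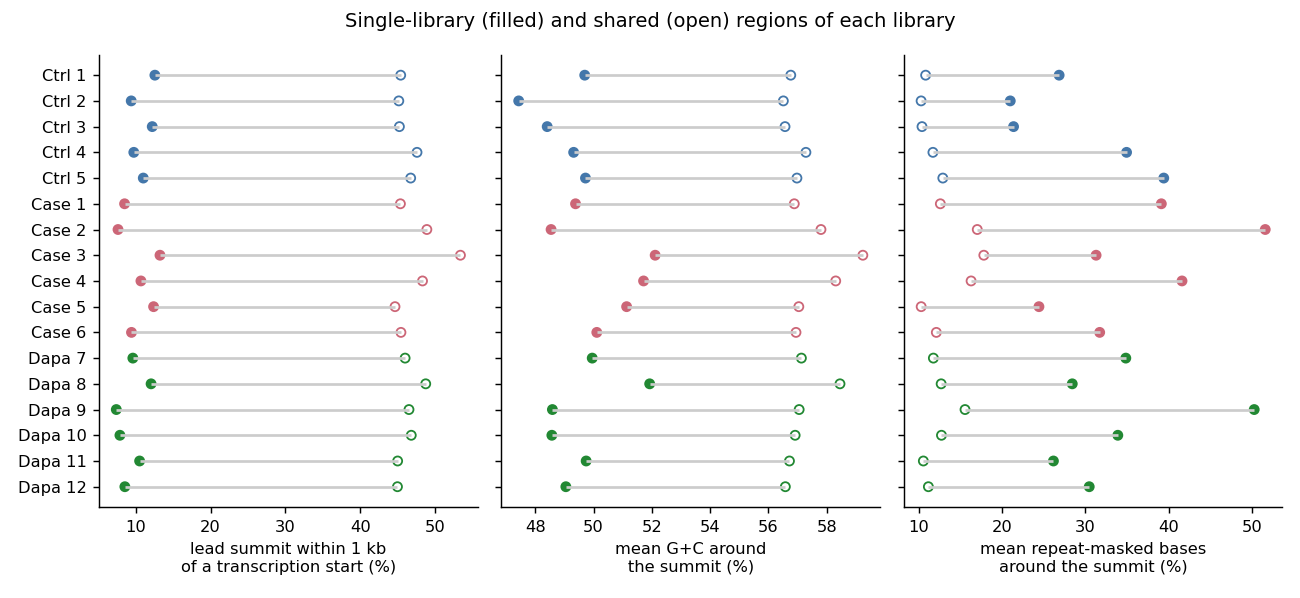
Rows are libraries. Filled points give single-library regions and open points shared regions for the promoter share, mean G+C and repeat-masked bases, all in percent. Filled points lie left of open ones for promoters and G+C in all 17 libraries and right of them for masked bases.

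Promoter share was higher in regions shared by more libraries, with small dips at 8 and 14 libraries and the largest step at the end. It was 10.0% in single-library regions, 14.1% in those of 2 libraries, 27.2% in those of 9, 51.8% in those of 16 and 78.7% in those of all 17. Mean G+C went from 50.0% to 63.0%, and masked bases from 36.3% to 7.60%. The GC box (GGGCGG), a motif of CpG-rich promoters, was in 4.43% of members and 20.9% of shared regions. The ETS motif (CCGGAAGT) was in 0.137% and 1.84%, and the NRF1 motif (GCGCATGCG) in 0.0624% and 0.664%. AP-1, at 6.34% and 6.84%, and PU.1, at 1.61% and 1.54%, were about as frequent in both. A match is a description of the letters and not evidence of binding.

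**Figure D4:**
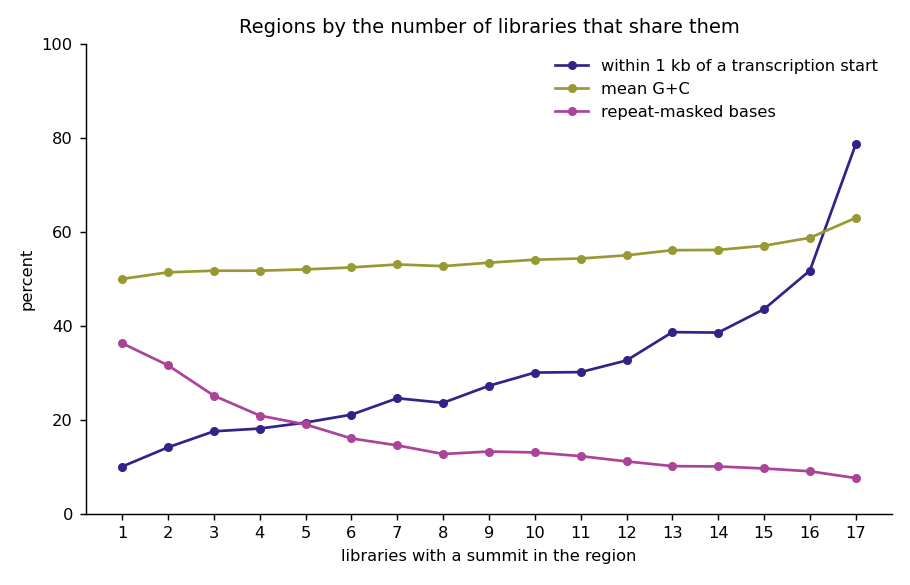
The horizontal axis is the number of libraries with a summit in the region and the vertical axis a percentage. The promoter share rises from 10.0% to 78.7%, mean G+C from 50.0% to 63.0%, and repeat-masked bases fall from 36.3% to 7.60%.

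Between groups, no difference in the promoter share or mean G+C of members passed the test. Masked bases and motifs were not tested between groups. The promoter share of members was 11.0% ± 1.42 in Ctrl (SD, n = 5), 10.3% ± 2.20 in Case and 9.36% ± 1.75 in Dapa (SD, n = 6 each). The Case minus Ctrl difference of −0.666 points was 0.692 with all summits and −4.76 with lists of 50% of the length, where Dapa minus Ctrl went from −1.64 to −4.78. Exact permutation tests, 2-sided, gave p = 0.565 for Case against Ctrl, 0.392 for Dapa against Case and 0.126 for Dapa against Ctrl. Mean G+C of members was 48.9% ± 0.985, 50.5% ± 1.39 and 49.6% ± 1.26, with p = 0.0628, 0.288 and 0.361 by the same exact test. None passed after adjustment over the 12 tests, where the lowest adjusted p of these 6 was 0.180.

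The best-ranked members of Case 3 held more AP-1 and PU.1 motifs than those of other mice, and over all members the distance was smaller. Among the 200 best-ranked members of each library, the AP-1 motif was in 33.0% in Case 3 and in 3.50% to 17.5% in the other 16 libraries, of which Dapa 8 was highest. The PU.1 motif was in 21.5% in Case 3 and in 0.500% to 4.00% elsewhere. Shared regions of the same libraries held AP-1 in 4.90% to 6.87% and PU.1 in 1.29% to 1.98%. Over all members, AP-1 was in 8.86% in Case 3, 7.69% in Dapa 8 and 4.69% to 7.18% elsewhere, and PU.1 in 3.16%, 2.08% and 0.863% to 1.65%. The 200 best members also ranked higher in Case 3, where they ended at rank 7299, against 11200 to 21012 elsewhere. Of the 200 in Case 3, 40 were promoters, the most of any library. The number 200 was chosen after seeing the data.

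**Figure D5:**
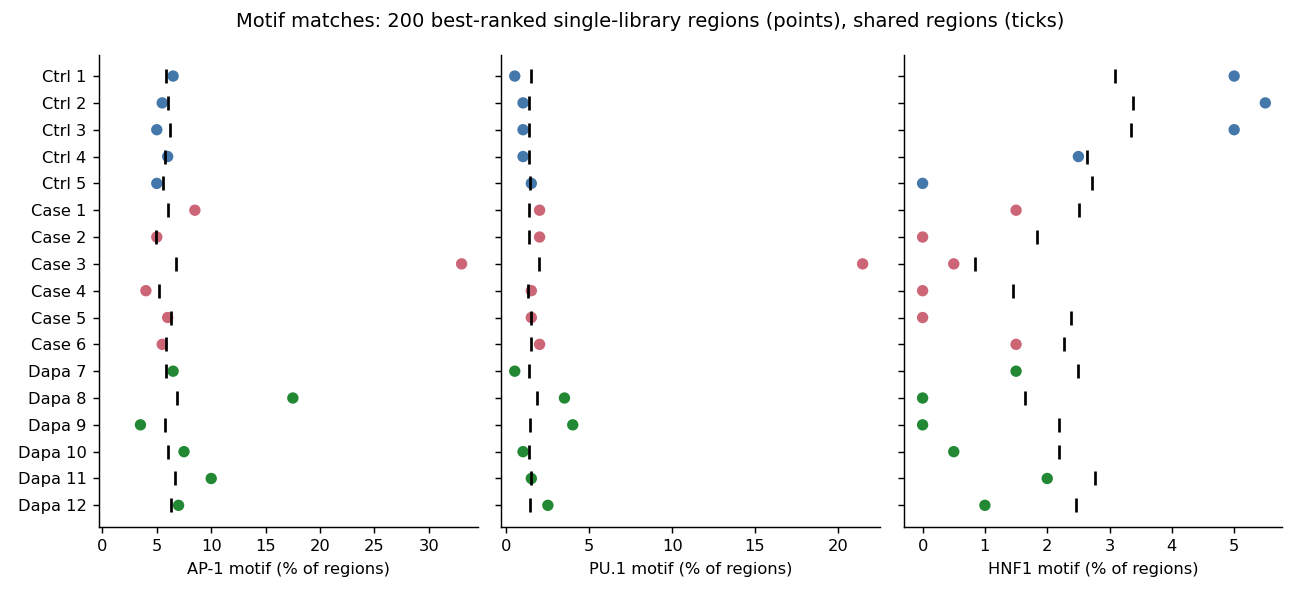
Rows are libraries. Points give the percentage of the 200 best-ranked single-library regions with each motif and ticks that of shared regions. Case 3 lies apart for AP-1 (33.0%) and PU.1 (21.5%), and Ctrl 1 to 3 lie highest for the HNF1 motif (at least 5.00%).

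Case 3 also held members at 8 of the 25 leukocyte genes, namely Spi1, Lck, Runx3, Itgam, Itgax, Cd3d, Csf2rb and Csf1r. The other libraries held 0 to 5. Over whole lists the difference was not seen, since 9 of the 25 had any summit in Case 3 and 5 to 12 had one elsewhere. Of 30 interferon response and antigen presentation genes, Case 3 had members at 6 (Usp18, Stat2, Ciita, Psmb8, H2-Ab1 and Cd74) and the other libraries at 0 to 4. Case 3 also had members at the most genes of all kinds, at 3398 of 21938 protein-coding genes against 669 to 2184. Kidney epithelium genes, from 4 marker lists, had any summit at 26 of 47 in Case 3 and at 23 to 38 elsewhere. The shared regions of Case 3 held fewest tubule factor motifs of the 17 libraries, with HNF1 in 0.847%, against 1.46% to 3.38%, and HNF4 (CAAAGTCCA) in 0.556%, against 1.34% to 2.35%. The part of leukocyte and tubule content in these values was not tested.

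The partner of Case 3 was a treated mouse. Of the 12412 regions found in exactly 2 libraries, 928 joined Case 3 and Dapa 8, and the next pair, Case 3 and Case 4, shared 323. The 928 held AP-1 in 32.4% and PU.1 in 10.1%, and the 11484 regions of other pairs held them in 5.93% and 1.18%. Among the 200 best-ranked members of Case 3, 40 held a lower-ranked summit of Dapa 8, and at most 5 held one of any other library. The mice belong to different treatment groups.

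The HNF1 motif was commoner in members of 3 Ctrl mice. It was in 2.49%, 3.18%, 4.39%, 0.787% and 1.09% of the members of Ctrl 1 to 5. In Case mice it was in 0.166% to 1.12% and in Dapa mice in 0.131% to 1.28%. Ctrl 1 to 3 lay above every db/db mouse, and Ctrl 4 and Ctrl 5 lay within their range. The HNF4 motif was in 1.31% ± 0.855 of Ctrl members (SD, n = 5), 0.402% ± 0.133 of Case and 0.557% ± 0.383 of Dapa members (SD, n = 6 each). In shared regions the HNF1 motif was in 3.03% ± 0.345, 1.88% ± 0.640 and 2.29% ± 0.384. No test was run on motifs. Ctrl 1 to 3 were also among the libraries with fewest members and the highest scores at the limit, 4.80 to 5.53.

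Being found in 1 list did not mean that other mice had no signal. Of the 64144 members, 14629 (22.8%) held a summit ranked below the limit in at least 1 other library. The limit decides which summits these are and how many a library has, so the values are a description with no test. Of these, 10813 had it in 1 other library and 1 had it in 8. The share was 30.9% ± 7.32 of a library's members in Ctrl (SD, n = 5), 23.5% ± 6.37 in Case and 23.5% ± 3.83 in Dapa (SD, n = 6 each). Without Ctrl 3 the Case minus Ctrl difference went from −7.41 to −3.27 points and the Dapa minus Ctrl difference from −7.45 to −3.40. Case 4 had no summit below the limit, so it could return none.

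The 2 highest pairwise values of recurrence joined Ctrl 2 and Ctrl 3. Per 1000 lower-ranked summits of the second library, 0.792% of the members of Ctrl 3 were found in Ctrl 2 and 0.746% of those of Ctrl 2 in Ctrl 3. The other pairs of Ctrl 1 to 3 lay at 0.444% to 0.551%, and 3 pairs from Ctrl 5, Dapa 8 and Case 6 to Case 3 at 0.445% to 0.507%, each resting on 2 or 3 regions. Not divided by list length, 41.2% of the members of Ctrl 3 recurred in any other library, 34.8% of those of Case 5 and 32.4% of those of Ctrl 2. Pairs within Ctrl averaged 0.347% ± 0.188 (SD, 20 ordered pairs, which share libraries). Pairs from Ctrl members to Case lists averaged 0.153%, and those within Case 0.172%. Over all mice, pairs of the same genotype averaged 0.201% and pairs of different genotype 0.167%. The difference of 0.0340 points was 0.0167 without Ctrl 2.

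At the level of genes, 10342 of 21938 protein-coding genes (47.1%) held a member between 2 kb upstream and their end, and long genes led. Gm20388, annotated over 4435 kb, held 254 members and was the one protein-coding gene with members in all 17 mice. Fgfr2, a receptor of fibroblast growth factors annotated over 2961 kb, held 115 in 16 mice. A member counts for every gene whose annotated span holds it. Counts over such long spans can thus include members that lie in other genes. The calcium channel gene Cacna1c held 51, the ion channel gene Asic2 50, Dlgap2 49, the cadherin gene Cdh13 48, Dpp6 47 and Nell1 45. The transcription factor genes Zfhx3 and Sox5 held 43 and 33, each in 16 mice. Over all protein-coding genes there were 27.3 members per Mb of gene length, with the 2 kb upstream counted for members but not for length.

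Counts of mice with a member in a gene are given as a description, since the selection fixed which summits are members and the groups differed in their number of members. Ctrl mice held 10709 members in all, Case mice 30349 and Dapa mice 23086. Fisher's exact test served here only to choose the genes named, and nothing is read from its p-values. Of 884 genes open to it between Case and Ctrl, 0 (0%) were under 0.05 after adjustment and 15 (1.7%) before. Between Dapa and Case it was 0 (0%) and 5 (0.724%) of 691, and between Dapa and Ctrl 0 (0%) and 19 (2.65%) of 717. The counts before adjustment ran from 15 to 89, 4 to 30 and 17 to 56 with 1 library left out, highest without Case 5, Case 5 and Dapa 11, and were 2, 1 and 1 with lists of 50% of the length. C130026I21Rik had members in 6 of 6 Case mice, 0 of 5 Ctrl mice and 4 of 6 Dapa mice. Tenm4, a synaptic adhesion gene, had them in 6 Case, 1 Ctrl and 6 Dapa mice, and Gm3383 in 6, 1 and 5. Tmeff2 and Nxph1 had them in 4 Ctrl mice and 0 Case mice, and in 2 and 1 Dapa mice. Robo1, an axon guidance receptor, had them in 5 Ctrl, 2 Case and 1 Dapa mice.

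Between Case and Dapa, the potassium channel gene Kcnj6 had members in 0 Case and 5 Dapa mice, Hs3st5 in 1 and 6, and Atxn1 in 1 and 5. In Ctrl mice their counts were 3, 1 and 1. The lincRNA Gm26561 and the gene Zfp385c had them in 5 Case mice and 0 Dapa mice, and the calcium release channel gene Ryr3 in 6 and 1. Ctrl counts for these were 2, 0 and 3. Against Ctrl, Tshz2, Fry and Syt6 had members in 6 of 6 Dapa mice and 0 of 5 Ctrl mice, and in 4, 3 and 2 Case mice. Brinp1 had them in 4 Ctrl, 2 Case and 0 Dapa mice, and Lrmda in 5, 3 and 1. A count of 0 mice with a member is not a count of mice without open chromatin. All 17 libraries had a summit in C130026I21Rik, Tenm4, Gm3383, Tshz2, Fry, Atxn1, Gm26561 and Lrmda, and 9 to 16 in the other genes named here.

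Of the study's candidate genes, 2 held members. The study reports accessibility at Isg15 and Csf2rb as raised in diabetic kidneys and lowered with dapagliflozin, and at Btla the reverse. Those reports were not examined here. Summits were counted from 2 kb upstream of a gene to its end. Isg15, an interferon-induced gene, had no summit there in any library. Slc5a2, which encodes SGLT2, had summits in 13 libraries but no member. Csf2rb, a cytokine receptor subunit, held 5 members, 4 in 2 Case mice and 1 in a Dapa mouse, and 15 libraries had a summit there. Btla, an inhibitory receptor of lymphocytes, held 1 in a Case and 1 in a Dapa mouse, and no other library had a summit there. Counts this small are not read as a property of these genes, since 47.1% of all protein-coding genes held a member.

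Cell type lists differed in how many members they held for their length. These lists and their counts are a description beside the 27.3 members and 33.5 shared regions per Mb of all protein-coding genes. Counts include 2 kb upstream of each gene but the lengths do not, which raises values per Mb most for lists of short genes. Median gene length was 6.00 kb for olfactory receptor genes and 11.0 kb for interferon response and antigen presentation genes. It was 17.4 kb for all protein-coding genes. Interferon response and antigen presentation genes held 29 members, 62.0 per Mb beside 87.7 shared regions per Mb, with 16 of 30 genes holding one. Leukocyte genes held 41 members, 48.2 per Mb beside 17.6 shared regions, with 16 of 25 genes. Ciita, the regulator of MHC class II genes, had members in 4 mice and Ikzf1, a lymphoid factor, in 4. Collecting duct genes held 45.3 per Mb (6 of 12 genes), endothelial genes 36.0 (10 of 10), mesangial and fibroblast genes 33.1 (6 of 10) and proximal tubule genes 32.8 (11 of 15). Podocyte genes held 19.7 (8 of 10), loop of Henle and distal tubule genes 15.6 (6 of 10), neuronal genes 19.04 (15 of 20) and housekeeping genes 19.3 (5 of 20). Shared regions per Mb were 37.0 at collecting duct, 5.99 at endothelial, 33.1 at mesangial and fibroblast, 63.7 at proximal tubule, 13.6 at podocyte, 33.4 at loop of Henle and distal tubule, 6.35 at neuronal and 139 at housekeeping genes. The order of the lists by members was thus not their order by shared regions. These values pool libraries of 1391 to 9015 members, and Case 3, with the most, had members at 8 leukocyte genes and 0 collecting duct genes. The neuronal gene Rbfox3 held 42 members in 14 mice. Olfactory receptor genes held 26.5 per Mb and vomeronasal receptor genes 25.3, beside 4.17 and 6.08 shared regions, although 774 of the 1135 olfactory genes had no summit in any library.

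Among kidney genes, Magi2, a podocyte scaffold, had members in 13 mice over 1478 kb. Slc4a4, a bicarbonate transporter of the proximal tubule, had them in 8, and Hnf4a in 4 Case mice and 1 Dapa mouse. Scnn1b, a sodium channel subunit of the collecting duct, had them in 4, and Flt1, an endothelial receptor, in 6.

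Members also clustered in places. The densest 1 Mb window for Ctrl, chr4:147000001-148000000, held 21 members among zinc finger genes such as Zfp991 and Zfp988, 8 of them from Ctrl 4. For Case it was chr5:94000001-95000000, with 81 members of 6 mice, 30 of them from Case 3. For Dapa it was chr7:20000001-21000000, with 50 members of 6 mice among vomeronasal receptor genes such as Vmn1r91, 22 of them from Dapa 9. The median window held 4, 9 and 7 members.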

How the data were processed

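ATAC-seq summits of 17 mouse kidney libraries were used, grouped by the sample labels. Per the labels and the study's methods, the authors used the ENCODE pipeline: Bowtie2 alignment to mm10, a filter on duplicate reads and blacklisted regions, and MACS2 for peaks. Each deposited list holds summit positions and a −log10 score. Whether that is of p or q is not given in the sources used here. Read totals were not used here, so depth is unknown.

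Ranks came from scores, with ties in genome order. Each region's lead summit was its best-ranked one in a library, annotated with GENCODE (141730 transcripts, 55413 genes). Repeat-masked bases were the lower-case letters of the RefSeq genome. Values per library were compared by exact permutation tests or, over 17 libraries, by 100000 sign flips, adjusted over 12 tests by Benjamini-Hochberg. Of the 12, 4 were on recurrence, which depends on the rank limit. None of these 4 passed, but nothing is read from this, since the limit fixes which summits count and how many a library has. They stay among the 12 of the adjustment, and recurrence is given as a description. Genes to name were chosen by Fisher's exact test with adjustment over genes able to reach p under 0.05. Similar sequences were found with BLAST 2.17.0. Scripts used Python 3.11.15 and SciPy 1.17.1 and were tested on simulated data. Of 136 pairs of libraries, 0 had identical lists. Genes named were the 8 with most members and the 8 in most mice, up to 3 per direction and comparison, the study's 3 candidates and Slc5a2, and up to 4 per list. Lists, motifs and members were chosen with earlier results of these data known. Nothing states whether mice shared a litter or batch.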

Additional observations from a re-analysis of the deposited data

Results flagged for a closer look

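The rule looked for a sample whose gap to the nearest other sample of its group was large against the group's range. It was applied to 60 sets of values, of which chance flags about 1 in 20, or 3, and 10 were flagged. No explanation was tested.

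In Dapa 9, 50.3% of member bases were repeat-masked, against 26.1% to 34.8% in the other Dapa mice. In Case 2, 1.48% of members lay on chromosome Y, against 0.191% to 0.524% in the other Case mice. The best rank of a member was 2531 in Ctrl 2, against 9802 to 10827 in the other Ctrl mice, and 466 in Dapa 11, against 6243 to 7446 in the other Dapa mice.

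Case 3 was set apart from the other Case mice 4 times. The PU.1 motif was in 3.16% of its members, against 1.05% to 1.65%, and in 21.5% of its 200 best-ranked members, against at most 2.00%. The AP-1 motif was in 33.0% of the 200, against 4.00% to 8.50%. Case 3 had members at 6 of 30 interferon response and antigen presentation genes, against 0 to 2. Over all 21938 protein-coding genes it had members at 3398, against 736 to 2184 in the other Case mice.

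In Case 5, 1.12% of members held an HNF1 motif, against 0.166% to 0.524% in the other Case mice. Ctrl 4 had members at 2 of 30 interferon response and antigen presentation genes, and each other Ctrl mouse at 1. Over all 21938 protein-coding genes Ctrl 4 had members at 1239, against 669 to 1070 in the other Ctrl mice.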

How the results depend on the processing

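The lower promoter share and G+C of single-library regions than of shared regions held under every alternative run. No group difference in them passed the threshold after adjustment under any. The number of regions was 13249 with lists of 50% of that length and 121118 with all summits. It was 24935 with scores of 5 or more within the list limit and 58051 to 64009 with 1 library left out. The Case minus Ctrl promoter difference turned positive with all summits (0.692 points) and with promoters within 3 kb (0.0708), and Dapa minus Case with scores of 5 or more (0.941). With lists of 50% of the length it grew from −0.666 to −4.76 points for Case minus Ctrl and from −1.64 to −4.78 for Dapa minus Ctrl. With 1 library left out the promoter differences ran from −1.27 (without Case 3) to −0.189 (without Case 1) for Case minus Ctrl, −1.63 (without Dapa 8) to −0.365 (without Case 3) for Dapa minus Case and −2.29 to −1.32 for Dapa minus Ctrl, and those in G+C from 1.27 to 1.95, −1.30 to −0.590 and 0.173 (without Dapa 8) to 0.946. The Dapa minus Case difference in recurrence, −0.0340 points, became 8.39 with lists of 50% of the length and 0.210 with 100 bp to each side, and ran from −1.56 to 2.12 with 1 library left out. Case minus Ctrl, −7.41, became −19.4 and −3.52 with 50% length and scores of 5 or more, and −10.0 to −3.27 with 1 library left out. Dapa minus Ctrl, −7.45, became −11.1 and −4.48, and −10.1 to −3.40 with 1 left out. The lowest values came without Ctrl 4 and the highest without Ctrl 3. The cause was not tested. The genotype difference in recurrence, 0.0340, ran from 0.0167 (without Ctrl 2) to 0.0419 with 1 library left out.

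Genes with an unadjusted p under 0.05 numbered 15, 5 and 19 in the 3 comparisons. They became 30, 10 and 29 with 100 bp, 3, 2 and 4 within 10 kb of a start, 2, 1 and 1 with lists of 50% of the length, and 15 to 89, 4 to 30 and 17 to 56 with 1 library left out. The first 2 were highest without Case 5 (89 and 30) and the last without Dapa 11 (56), and most other omissions also raised them. No gene passed adjustment in any of these. Nothing is read from this, since the selection fixed which summits are members and the groups differed in their number of members. PU.1 was in 13.2% of the 500 best members of Case 3.

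With a replicate block pairing Ctrl 1 to 5 and Case 1 to 5, the differences were −0.490 points for promoters, 1.66 for G+C and −8.03 for recurrence, with exact p of 0.750 and 0.125 for the first 2. The smallest possible is 0.0625. Same-numbered mice correlated at −0.0501 to 0.260 in member positions, with 1 of 5 pairs over 0.1. Different-numbered mice correlated at −0.200 to 0.176, with 5 of 20 pairs over 0.1. Members are by the rule found in no other library, so these values cannot decide whether the numbers pair the mice. The gene-level paired sign test was not run, since 5 pairs cannot reach p under 0.05. Unknown depth and list length limit every count here.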
